A study of Drosophila melanogaster with 2 samples.

Results

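2LHet and XHet are small mapped pieces of Drosophila centric heterochromatin, scaffolds assigned to the left arm of chromosome 2 and to the X chromosome but not joined to those arms in Release 5 of the genome. They were taken as every 300-bp bin of either scaffold that was overlapped by at least 1 H3K9me2 ChIP-seq tag in either library. This gave 1173 of the 446626 bins with a tag in the whole series, 710 on 2LHet and 463 on XHet. The study asked where dimethylation of histone H3 at lysine 9 (H3K9me2) depends on EHMT, the fly ortholog of the mammalian methyltransferases EHMT1 and EHMT2/G9a. Chromatin from whole larvae of the third instar was precipitated with an antibody against H3K9me2 and sequenced. One group was EHMT+, labelled wild type, a line from precise excision of the P-element KG01242 in the EHMT gene. The other was EHMTDD1, labelled EHMT-KO, a line from imperfect excision of the same element that lacks DNA downstream of the insertion, including the start of translation. The insertion lay on a chromosome carrying y1, from which excision lines were recovered, and both groups were reared on the same medium at the same temperature. Each group was 1 library, so differences between the genotypes lack any replicate check and are given without p-values. Whole larvae mix many tissues, and a lower level in all cells cannot be told apart from loss in some of them.

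H3K9me2 is a mark of silent chromatin. In flies the bulk of it lies in the repeat-rich DNA around the centromeres, where Su(var)3-9 and Eggless write it and heterochromatin protein 1 binds to methylated H3K9, while EHMT/G9a is known mainly as a euchromatic enzyme. Scaffolds such as 2LHet and XHet hold transposon remnants between stretches of unique sequence, and reads that match several places cannot be assigned to any of them.

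Both libraries held 7043913 tags, because the authors had equalized them, and no tags of a library shared both start and strand. 2LHet received 14450 tags (0.205% of the library) in EHMT+ and 14761 (0.210%) in EHMTDD1, and XHet received 12818 (0.182%) and 12460 (0.177%). These totals and all densities count a tag once, by its midpoint, whereas bin counts include every tag that overlaps the bin. Intervals are 95% intervals. For tag totals and ratios of tag totals or densities they reflect counting error and nothing else. For shares, odds ratios and medians over bins they are too narrow, since a tag can fall in adjacent bins and these are counted as separate observations.

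Large parts of both scaffolds gave no tag in either library. On 2LHet the tags ran from base 10255 to base 368415, and 710 of 1229 bins up to the last tag (57.8%) held one. Most of the empty sequence lay in single long stretches. The longest on 2LHet was chr2LHet:58230-126489, of 68.3 kb, followed by chr2LHet:214756-233704, of 18.9 kb, and chr2LHet:263497-270267, of 6.77 kb. On XHet the tags ran from base 386 to base 197595, and 463 of 659 bins (70.3%) held one. Its longest empty stretch was chrXHet:98062-125293, of 27.2 kb, and 3 others were between 5.55 and 8.81 kb. In the 300 kb at the centromeric end of the neighbouring arms the share of bins with a tag was higher, at 76.8% (769 of 1001) on 2L and 92.9% (929 of 1000) on X. With no input library used here, sequence that cannot be mapped uniquely and sequence without H3K9me2 cannot be told apart in these stretches.

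Where tags could be placed, both scaffolds had more H3K9me2 tags per kb than the euchromatic arms. These are the 5 large arms of chromosomes 2, 3 and X with their centromeric 1 Mb left out. No input library was used to correct the densities. Over bins with a tag midpoint, XHet had 96.0 tags per kb in EHMT+ and 93.3 in EHMTDD1, which was 1.79 (1.76 to 1.83) and 1.74 (1.71 to 1.77) times the density of the arms. 2LHet was lower, with 73.5 and 75.1 tags per kb, or 1.37 (1.35 to 1.40) and 1.40 (1.38 to 1.42) times the arms. The excess on 2LHet rested on part of its bins. The median 2LHet bin had 30 tags in EHMT+ and 21 in EHMTDD1, against 29 in both libraries in the arms, and over all bins up to the last tag, empty ones included, its density was 0.762 and 0.776 times that of the arms. The excess on XHet was more even, with a median of 58 tags per bin in EHMT+ and 43 in EHMTDD1. The median XHet bin in EHMT+ stood at the 94.5th percentile of the arm bins, and the median 2LHet bin at the 50.9th.

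**Figure D1:**
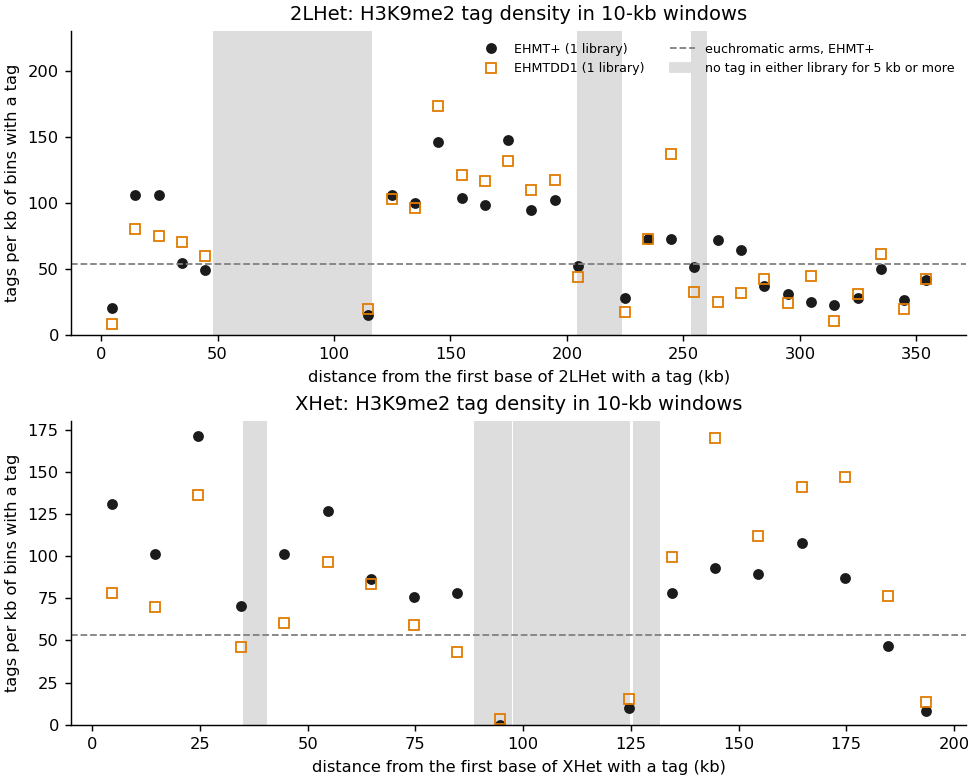
H3K9me2 tags per kb of bins with a tag, in 10-kb windows along 2LHet (top) and XHet (bottom), against the distance from the first base with a tag, with 1 point per library. Grey areas are stretches of 5 kb or more without a tag. On XHet the EHMT+ points lie above the EHMTDD1 points in the first 9 windows and below them in the last 7, with thin windows of fewer than 10 bins between, and on 2LHet the order changes repeatedly.

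The scaffolds differed from the arms they are assigned to. 2LHet had 0.621 times (0.609 to 0.634) the EHMT+ density of the centromeric 300 kb of 2L, which had 118 tags per kb, and 0.674 times (0.660 to 0.688) its EHMTDD1 density. XHet was on the other side of its arm, with 1.45 times (1.42 to 1.48) the EHMT+ density of the centromeric 300 kb of X, which had 66.2 tags per kb, and 1.93 times (1.89 to 1.98) its EHMTDD1 density. XHet was thus the denser of the scaffolds, although the X end was the less dense of the centromeric regions.

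Neither scaffold as a whole differed between the libraries by more than a few percent. The ratio of EHMT+ to EHMTDD1 totals was 0.979 (0.957 to 1.00) on 2LHet and 1.03 (1.00 to 1.05) on XHet. The direction of both rested on part of the bins: without the 10 bins with most tags the ratio was 1.01 on 2LHet, and without the first and last 10 kb it was 0.986 on XHet. The first 10 kb of XHet held 1260 tags in EHMT+ and 751 in EHMTDD1. The same ratio was 1.06 (1.04 to 1.08) in the centromeric 300 kb of 2L, with 25751 and 24235 tags, and 1.37 (1.34 to 1.40) in that of X, with 18081 and 13182 tags. The ratio on 2LHet was therefore 0.921 times (0.895 to 0.948) that of its arm's end, and the ratio on XHet 0.750 times (0.725 to 0.776) that of its own. For X the difference depended on how much of the arm was taken, at 0.690 against 100 kb and 0.817 against 1 Mb.

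The even totals covered a wide spread of single bins. With 1 added to both counts, the log2 ratio of EHMT+ to EHMTDD1 had a median of 0.08 (0.00 to 0.22) on 2LHet and 0.10 (-0.04 to 0.24) on XHet, but its SD was 1.41 and 1.34, against 0.87 in the arms. On 2LHet the ratio ran from -1.23 at the 5th percentile to 3.20 at the 95th, and on XHet from -1.08 to 3.07. Both distributions thus reached further towards bins with more tags in EHMT+. Bins within 0.5 of 0 made up 33.1% of 2LHet (235 bins) and 35.6% of XHet (165 bins). Across bins, the log2 counts of the 2 libraries had a Pearson correlation of 0.76 over 710 bins on 2LHet and 0.71 over 463 bins on XHet, as a description only, since neighbouring bins share tags and all bins share the 2 libraries.

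The limits for a bin that differed were the mean plus and minus 2 SD of 384458 euchromatic bins, 380051 of the arms with the centromeric 1 Mb left out and 4407 of chromosome 4, with the 13722 bins without a tag included. This follows the study's approach to bins that lose methylation, but with 1 added to the counts and a somewhat different set of bins, so the limits differ from the study's own. The upper limit was a log2 ratio of 1.90, or 3.74-fold more in EHMT+, and the lower limit was -1.56, or 2.96-fold more in EHMTDD1. Above the upper limit were 127 bins of 2LHet (17.9%, 15.2 to 20.9%) and 79 bins of XHet (17.1%, 13.9 to 20.8%), against 6.8% of all bins of the series and 5.05% of the arms. Below the lower limit were 16 bins of 2LHet (2.25%, 1.39 to 3.63%) and 3 bins of XHet (0.648%, 0.221 to 1.89%), against 0.977% of all bins and 0.243% of the arms. The 3 XHet bins lay just past the limit, and none was below it when the limits came from bins with a tag alone. The 2 scaffolds did not differ in the share above the limit beyond their intervals, with an odds ratio of 1.06 (0.770 to 1.46).

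Over all bins, the centromeric ends had a similar excess over the arms. The centromeric 300 kb of 2L had 150 bins above the limit (19.5%, 16.9 to 22.5%) and that of X had 139 (15.0%, 12.8 to 17.4%). The larger heterochromatic scaffolds 2RHet, 3LHet and 3RHet had 15.3, 16.7 and 16.4% of bins above the limit and 2.54, 1.65 and 1.96% below the lower limit. Their log2 ratios had SDs of 1.36, 1.33 and 1.35, so this spread and excess were not particular to 2LHet and XHet. The odds of a bin above the limit were 0.899 times (0.685 to 1.18) those of the 2L end on 2LHet and 1.17 times (0.852 to 1.60) those of the X end on XHet, so neither difference exceeded its interval. The median log2 ratio was 0.52 (0.46 to 0.58) at the X end, above the interval of XHet, and 0.31 (0.18 to 0.48) at the 2L end, whose interval overlapped that of 2LHet.

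**Figure D2:**
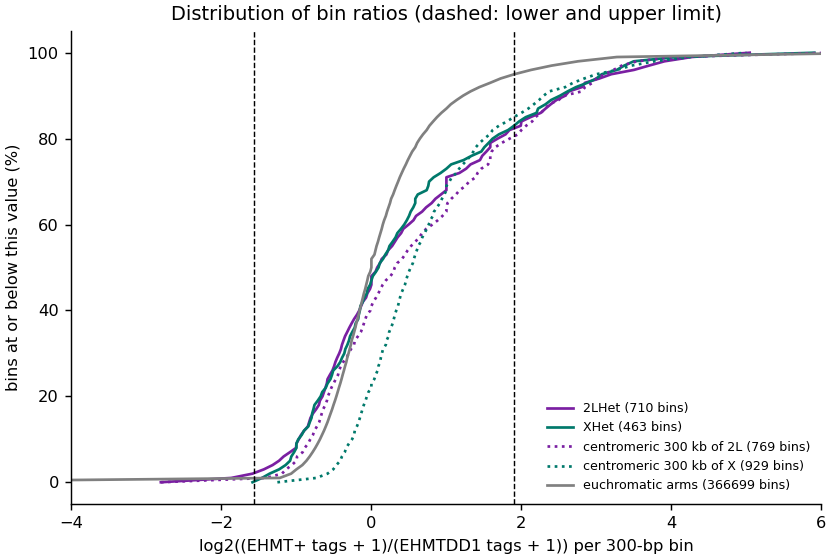
Cumulative share of bins (y axis, percent) at or below each log2 ratio of EHMT+ to EHMTDD1 (x axis, 1 added to both counts) in 2LHet, XHet, the centromeric 300 kb of 2L and X and the euchromatic arms, with the limits at -1.56 and 1.90 as dashed lines. The curves of the scaffolds cross 50% near those of the arms and reach the upper limit at a lower share, with 17.9% and 17.1% of bins still above it against 5.05% of the arms.

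Most bins above the limit had 10 or more EHMT+ tags. On 2LHet they had a median of 34 EHMT+ tags and 3 EHMTDD1 tags, and on XHet a median of 52 and 6. Only 16 of the 127 on 2LHet and 6 of the 79 on XHet had fewer than 10 EHMT+ tags. The bins below the lower limit had medians of 6 EHMT+ and 23 EHMTDD1 tags on 2LHet, and 2 and 8 on XHet. A bin passes the upper limit through its EHMT+ count and the lower limit through its EHMTDD1 count. The contrast in EHMT+ coverage thus follows in part from the rule.

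The share above the limit varied with the EHMT+ count of the bin. These classes use the EHMT+ count, which also enters the ratio, and they were chosen after the values were seen. Their intervals are too narrow, since neighbouring bins share tags. With 10 to 19 EHMT+ tags, 19 of 98 bins of 2LHet (19.4%, 12.8 to 28.3%) and 10 of 27 of XHet (37.0%, 21.5 to 55.8%) were above it, against 7.11% in the arms. Among bins with 20 to 39 EHMT+ tags, 43 of 155 on 2LHet (27.7%, 21.3 to 35.3%) and 15 of 63 on XHet (23.8%, 15.0 to 35.6%) were above it, against 4.60% in the arms. With 40 to 59 tags the shares were 23.8% (31 of 130) and 19.0% (19 of 100), against 4.13%. With 60 to 79 tags they were 20.3% (15 of 74) and 19.5% (24 of 123), against 4.59%. In each of these 4 classes the intervals of both scaffolds lay above the arms' share. The centromeric ends shared this excess. The 2L end had 23.6, 30.3, 25.5 and 22.5% in the 4 classes, with all intervals above the arms' share. The X end had 31.0, 14.8, 13.1 and 5.0%, with intervals above it in the first 3. In the densest bins, with 80 or more EHMT+ tags, 3 of 95 bins of 2LHet (3.16%, 1.08 to 8.88%) and 5 of 98 bins of XHet (5.10%, 2.20 to 11.4%) were above the limit, and the arms' 5.88% lay inside both intervals. The median log2 ratio of these densest bins was -0.36 on 2LHet, with a median of 132 tags in EHMTDD1, and -0.02 on XHet. The centromeric 300 kb of 2L kept a higher share in this class, 40 of 306 bins (13.1%, 9.75 to 17.3%). The X end had 1 of 49 bins (2.04%, 0.361 to 10.7%). In the class of 60 to 79 tags the X end had 4 of 80 bins above the limit (5.0%, 1.96 to 12.2%), against 19.5% (13.5 to 27.4%) on XHet. The thinnest class, from 1 to 9 EHMT+ tags, had 10.6% above the limit on 2LHet, 12.0% on XHet and 13.3% in the arms. These values do not allow a comparison of the regions, because the rule keeps the sparsest of these bins out. A bin with 2 EHMT+ tags and none in EHMTDD1 has a log2 ratio of 1.58, below the limit of 1.90. The share of such bins can differ between regions.

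**Figure D3:**
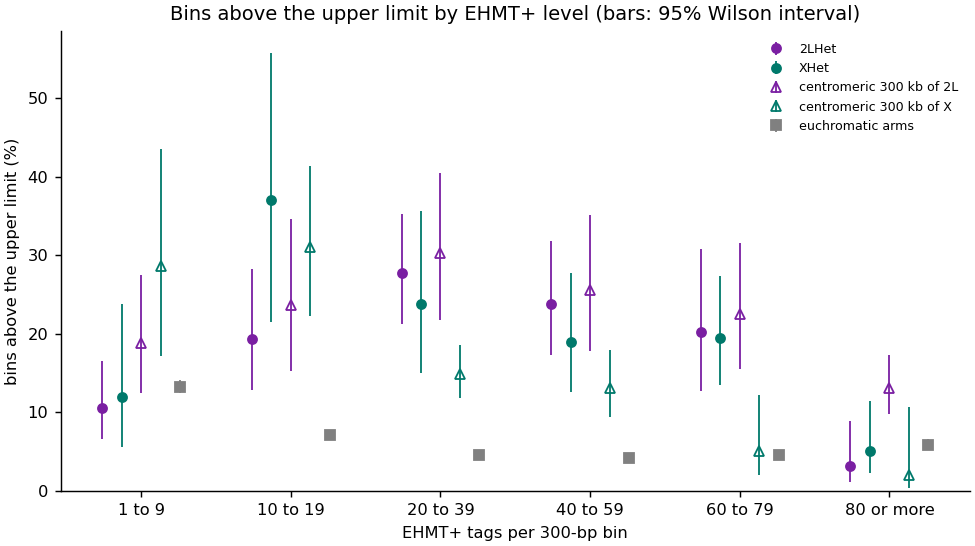
Share of bins above the upper limit (y axis, percent, with 95% Wilson intervals) in 6 classes of EHMT+ tags per 300-bp bin (x axis), for 2LHet, XHet, the centromeric 300 kb of 2L and X and the euchromatic arms. With 20 to 79 EHMT+ tags both scaffolds are at 19.0 to 27.7% and the arms at 4.13 to 4.60%, and with 80 or more tags the scaffolds are at 3.16 and 5.10%.

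Tags were also more concentrated in the mutant. The tenth of bins with most tags held 30.3% of the EHMT+ tags of 2LHet (66 bins) and 41.9% of the EHMTDD1 tags, and on XHet it held 20.6% (45 bins) and 28.6%. The 95th percentile of tags per bin was 103 in EHMT+ and 146 in EHMTDD1 on 2LHet, and 110 and 136 on XHet, while the lower quartile was 11 and 5 on 2LHet and 32 and 12 on XHet. The EHMTDD1 bins thus lay further apart at both ends. This was not particular to the scaffolds. In the arms the 95th percentile was 59 in EHMT+ and 67 in EHMTDD1, and the lower quartile 22 and 19. In the centromeric 300 kb of 2L they were 146 and 216, and 23 and 9. In that of X the lower quartile was 26 and 11, but the 95th percentile was 80.6 and 74.

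The site with most tags of both scaffolds was a block of 3 bins on 2LHet, chr2LHet:187501-188400. Its bins held 428, 530 and 305 tags in EHMT+ and 461, 666 and 359 in EHMTDD1. By midpoint it had 675 tags in EHMT+ and 805 in EHMTDD1, a ratio of 0.839 (0.756 to 0.930), which was 4.67% and 5.45% of all 2LHet tags. Since each start and strand is used once, 1198 positions can reach a bin, and the middle bin filled 44.2% and 55.6% of them, so its counts are capped. Downstream of this block the difference was in the opposite direction. In the 4 bins of chr2LHet:188701-189900 EHMT+ had 70, 60, 35 and 35 tags and EHMTDD1 had 11, 6, 6 and 4. Upstream, in chr2LHet:186301-187200, EHMTDD1 had more, with 57, 72 and 66 tags against 50, 52 and 43 in EHMT+. The bin between these and the block had 154 tags in EHMT+ and 132 in EHMTDD1. On XHet no site stood out in this way, and its highest EHMT+ bins reached 141 tags.

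Bins above the limit lay next to each other. On 2LHet the 127 bins formed 54 runs, 26 of them of 2 or more bins, and on XHet the 79 bins formed 35 runs, 17 of them of 2 or more. A tag of 300 bp reaches neighbouring bins, so a run of 2 bins can come from the same tags, but 10 runs on 2LHet and 7 on XHet had 4 or more bins. Every bin of a run was chosen by its ratio, so the difference between the libraries inside a run is a description. Flanking bins are given beside some runs. A bin directly next to a run is within the limit by the rule, but bins further out can be past it.

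The longest run was chr2LHet:272401-277200, with 16 bins. Its bins held 19 to 67 tags in EHMT+ and 2 to 8 in EHMTDD1. By midpoint it had 351 tags in EHMT+ and 34 in EHMTDD1, a ratio of 10.3 (7.25 to 15.1). Downstream the 3 next bins had 54, 62 and 60 tags in EHMT+ and 18, 20 and 6 in EHMTDD1, and the last of them was itself above the limit. Upstream the signal ended in both libraries, with 2, 0 and 0 tags in each of them going outwards from the run. The run thus began near the edge of a covered block, after the last of the long empty stretches.

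The next longest runs on 2LHet were shorter. The run chr2LHet:281401-284100 had 9 bins, with 12 to 52 tags in EHMT+ and 0 to 9 in EHMTDD1, and 151 against 13 tags by midpoint, a ratio of 11.6 (6.59 to 22.3). The bins after it had 20, 40 and 45 tags in EHMT+ and 8, 26 and 22 in EHMTDD1, a smaller difference. The run chr2LHet:32101-33600 had 5 bins, with 34 to 72 tags against 3 to 14, and 130 against 20 tags by midpoint, a ratio of 6.50 (4.04 to 11.0). Before it EHMT+ was higher, with 47, 50 and 39 tags against 9, 30 and 24 in EHMTDD1. Directly after the run EHMTDD1 was higher in 2 bins, with 40 and 72 tags against 31 and 48 in EHMT+.

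The longest run on XHet was chrXHet:152101-155100, with 10 bins of 15 to 52 tags in EHMT+ and 0 to 10 in EHMTDD1. Its totals by midpoint were 165 and 18, a ratio of 9.17 (5.62 to 15.9). In a row, 3 of its bins had no EHMTDD1 tag at all, with 20, 15 and 20 in EHMT+. The outer flanking bins had more tags in EHMTDD1, with 130 and 78 against 69 and 58 upstream. Downstream the outer bins had 84 and 95 against 74 and 81. The bins next to the run had fewer in EHMTDD1, with 20 against 52 upstream and 13 against 38 downstream. EHMT+ was also lower in the run than in the outer bins. The run was therefore a local trough in both libraries, deeper in EHMTDD1, in a stretch with high EHMTDD1 counts.

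The other named runs of XHet lay on its first side. The run chrXHet:13501-15300 had 6 bins with 14 to 77 tags against 3 to 12, and 162 against 18 tags by midpoint, a ratio of 9.0 (5.52 to 15.6). The run chrXHet:83101-84600 had 5 bins with 59 to 81 tags against 6 to 15, and 173 against 28 tags, a ratio of 6.18 (4.13 to 9.57).

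**Figure D4:**
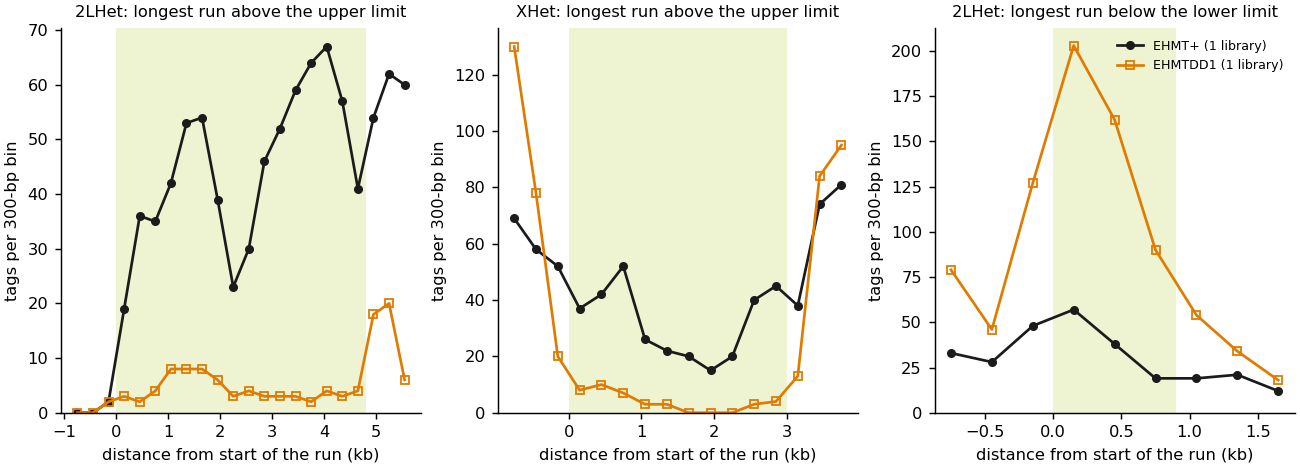
H3K9me2 tags per 300-bp bin in EHMT+ (filled circles) and EHMTDD1 (open squares), against the distance in kb from the start of the longest run above the upper limit on 2LHet (left) and XHet (middle) and of the longest run below the lower limit on 2LHet (right), the runs shaded and 3 flanking bins on each side. In the shaded bins EHMTDD1 has 2 to 8 tags on the left and 0 to 10 in the middle, and 90 to 203 on the right against 19 to 57 in EHMT+.

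Runs in the other direction were short. The longest was chr2LHet:251701-252600, with 3 bins of 57, 38 and 19 tags in EHMT+ and 203, 162 and 90 in EHMTDD1. By midpoint it had 56 and 222 tags, 3.96-fold (2.95 to 5.41) more in EHMTDD1. The bin before it also leaned that way, with 48 and 127 tags. The next, chr2LHet:317401-318000, had 9 and 12 tags against 34 and 52, and by midpoint 10 against 48, or 4.80-fold (2.40 to 10.6) more in EHMTDD1. The last, chr2LHet:364801-365400, had 1 and 0 tags against 6 and 3 and is too thin for a fold. On XHet the 3 bins below the limit were single bins, with 1 against 5 tags in chrXHet:197401-197700, 2 against 8 in chrXHet:125101-125400 and 6 against 20 in chrXHet:149101-149400.

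Some covered bins of the control were empty in the mutant. On 2LHet 10 bins (1.41%) and on XHet 6 bins (1.30%) had at least 10 EHMT+ tags and none in EHMTDD1, against 0.327% of arm bins. The share was 0.650% at the 2L end and 1.40% at the X end. No bin of either scaffold or of either end showed the reverse, which was also rare in the arms, at 0.00436% of bins. The most covered bin without an EHMTDD1 tag was chrXHet:87001-87300, with 59 tags in EHMT+. It was at least 19.7-fold higher in EHMT+ against a floor of 3 tags per library. Its neighbour chrXHet:87301-87600 had 36 and 0. On 2LHet the most covered was chr2LHet:144001-144300, with 26 and 0, at least 8.67-fold higher. A loss of the DNA itself in the EHMTDD1 line and a loss of the mark cannot be told apart here, since no input library was used here.

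Along 2LHet the difference changed direction repeatedly. Of 26 windows of 10 kb with at least 10 bins with a tag, 13 had more tags in EHMT+ and 13 more in EHMTDD1, with no more than 3 neighbouring windows on one side. The log2 ratio of their totals ran from -0.91 to 1.56, with an SD of 0.61, against 0.26 on arm 2L and 0.51 at its centromeric end. The larger scaffolds 2RHet, 3LHet and 3RHet had similar SDs of 0.63, 0.67 and 0.58. The highest ratio was in chr2LHet:270001-280000, with 584 tags in EHMT+ and 198 in EHMTDD1 and 18 of its 28 bins above the limit. The lowest were chr2LHet:250001-260000, with 741 and 1398 tags, and chr2LHet:310001-320000, with 206 and 376. The highest and the lowest window thus lay only 10 kb apart, on either side of an empty stretch.

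The windows of 2LHet with most and fewest EHMT+ tags per kb differed as well. The densest in EHMT+ were chr2LHet:180001-190000, with 148 tags per kb in EHMT+ and 132 in EHMTDD1, which holds the highest site, and chr2LHet:150001-160000, with 146 and 173. The thinnest were chr2LHet:10001-20000, with 66 and 27 tags, which also had the second highest ratio, 2.44 (1.54 to 3.98), and chr2LHet:320001-330000, with 116 and 52 tags, a ratio of 2.23 (1.60 to 3.16). Densities were below those of the arms in much of the last block, chr2LHet:270268-368415, which had 41.5 tags per kb in EHMT+ and 34.9 in EHMTDD1 against 53.5 and 53.7 in the arms. That block held 275 of the 710 bins of 2LHet, and 60 of them (21.8%) were above the upper limit, against 17.9% of the whole scaffold, and 9 below the lower.

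XHet separated into sides of opposite direction. Before its longest empty stretch, in chrXHet:386-98061, there were 8534 tags in EHMT+ and 6179 in EHMTDD1, a ratio of 1.38 (1.34 to 1.43). After it, in chrXHet:125294-197595, there were 4284 and 6281, a ratio of 0.682 (0.656 to 0.709). The first ratio was 2.02 times (1.92 to 2.13) the second, and 1.95 to 2.10 times when any single window was left out. The division at this stretch was chosen after the values had been seen. All 9 windows of the first side had more tags in EHMT+, with log2 ratios of 0.05 to 0.85, and all 7 of the second had more in EHMTDD1, at -0.87 to -0.32.

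Single bins of XHet hold the same tags as these windows, so their values by side describe the division and are no separate support for it. On the first side 189 of 272 bins had more tags in EHMT+, with a median log2 ratio of 0.51 (0.38 to 0.72), and 61 (22.4%, 17.9 to 27.7%) were above the upper limit. On the second side 53 of 191 bins had more in EHMT+, with a median of -0.58 (-0.70 to -0.42), and 18 (9.42%, 6.04 to 14.4%) were above it. Of these 18, 10 formed the run chrXHet:152101-155100. The 6.8% of the series lay inside the interval of the second side and below that of the first. Without the bins past a limit the ratio of ratios was 1.83. Where the libraries summed to 100 or more tags, 79 of 139 bins of the first side and 6 of 98 of the second had more tags in EHMT+.

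The named windows of XHet followed these sides. The densest were chrXHet:20001-30000, with 172 tags per kb in EHMT+ and 137 in EHMTDD1, and chrXHet:1-10000, with 131 and 78.2 and 12 of its 32 bins above the limit. The highest ratios were in chrXHet:80001-90000, with 608 and 336 tags, and chrXHet:40001-50000, with 819 and 488. The lowest were in chrXHet:140001-150000, with 501 and 918 tags, and chrXHet:170001-180000, with 861 and 1455. The thinnest were at the far end, chrXHet:190001-197595, with 20 and 32 tags, and chrXHet:180001-190000, with 450 and 736.

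Long series of windows in one direction were also seen in some other regions, but not in all. The longest on XHet were 9 windows with more EHMT+ tags and 7 with more EHMTDD1 tags, among 16. The larger scaffold 3RHet had series of 11 and 15 among 220 windows. The centromeric 300 kb of X had a series of 19 with more EHMT+ tags among 30. In the same order, the longest were 6 and 9 among 240 windows on scaffold 2RHet and 6 and 9 among 230 on 3LHet. At the 2L end they were 5 and 3 among 25. At the longest stretch of 2LHet the ratios were 1.19 before and 0.941 (0.917 to 0.965) after it. The ratio of ratios was 1.27 (1.19 to 1.35), and 1.16 to 1.40 when any single window was left out. The part after the stretch was not of one direction. Its ratio was 0.917 in chr2LHet:126490-214755, 0.723 in chr2LHet:233705-263496 and 1.19 in chr2LHet:270268-368415. The windows of 2LHet did not separate, with 3 of 5 before the stretch and 10 of 21 after it having more tags in EHMT+.

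**Figure D5:**
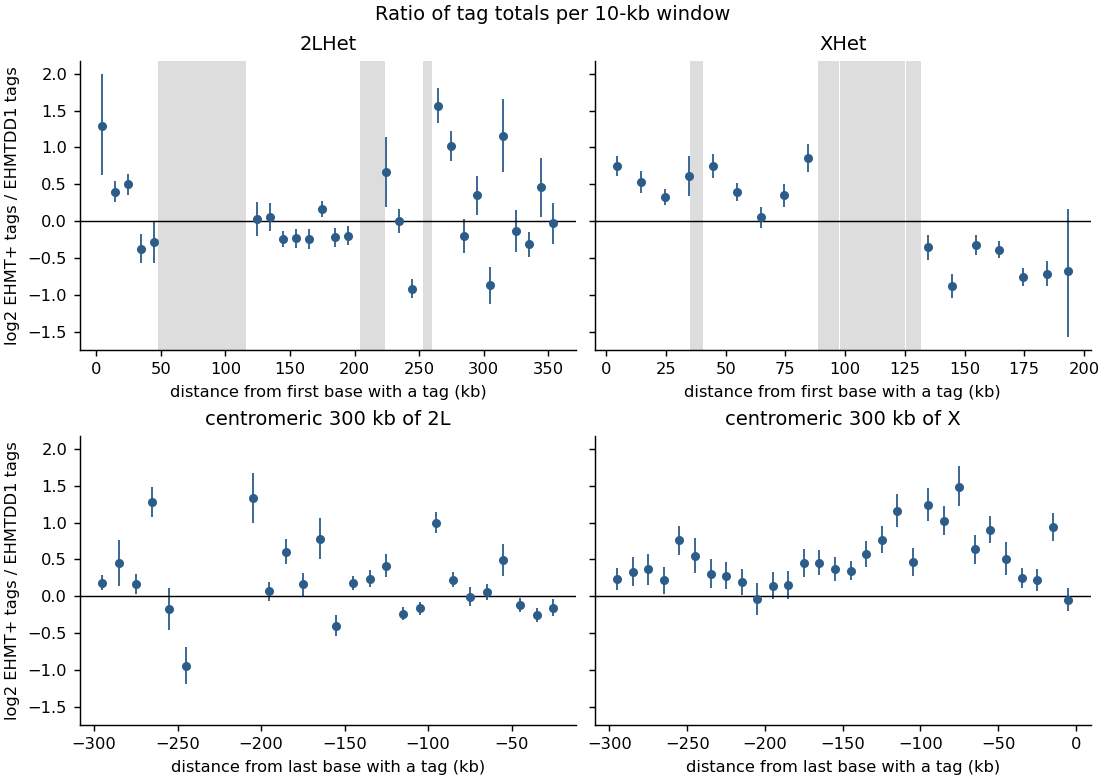
Log2 ratio of EHMT+ to EHMTDD1 tag totals in 10-kb windows with at least 10 bins with a tag, along 2LHet, XHet and the centromeric 300 kb of 2L and X, with intervals for counting error. XHet goes from 9 windows above 0 to 7 below, 2LHet has 13 on each side, and 28 of the 30 windows of the X end are above 0.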

How the data were processed

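H3K9me2 ChIP-seq was available as 1 library per genotype, and no input library was used here. The deposited files hold positions, in another form than counts: reads of 36 bp were mapped by the authors to Release 5 (dm3, BDGP5 per the labels), allowing 1 mismatch and unique positions only. Tags were then extended to 300 bp, and the larger library was reduced to the size of the smaller. The alignment used the Illumina Analysis Pipeline, and its version is not given in the sources used here. Unique mapping empties repeats, and the extension spreads a tag over neighbouring bins. Coordinates were read as 1-based and inclusive, since every tag then spans 300 bp, and the last tag of a chromosome was taken as its end.

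Tags were counted in 300-bp bins from base 1, in every bin they overlapped, and the log2 ratio was taken with a pseudocount of 1. The median of 30 or 58 EHMT+ tags per bin limits what 1 bin can show. Ratios of totals have exact conditional binomial intervals, and shares have Wilson intervals (95%). Counting was tested on simulated data. The named regions are the 3 longest runs of bins past each limit and the 2 windows of 10 kb at each extreme of EHMT+ density and of log2 ratio. Other sites and groupings in the text (the highest block, classes of EHMT+ level, bins empty in EHMTDD1, the sides of a scaffold) were chosen after their values were seen. The regions and rules were chosen with earlier results of these data known. Alternatives covered the pseudocount, thin bins, tag counting and length, size and grid of the bins, the limits, scaling and the length of the centromeric region. Sequences, genes and repeat classes were not analysed here. Counting used NumPy 2.4.6 and pandas 2.3.3 under Python 3.11.15, intervals used SciPy 1.17.1, and plots used Matplotlib 3.10.9.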

Additional observations from a re-analysis of the deposited data

How the results depend on the processing

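Values under alternatives not listed here lay within the interval of the value they replace, although the 2LHet median log2 ratio was then 0 in bins with tags in both libraries. For those listed, the cause was not tested. The 2LHet share of bins above the upper limit was 13.4% with tags counted by midpoint, 21.8% with 600-bp bins, 8.45% with limits at 3 SD and 27.9% with limits from the median and MAD, and its share below the lower limit was 1.37% by midpoint, 1.34% with shortened tags, 0.141% at 3 SD and 5.92% with the MAD. The XHet share above was 7.56% at 3 SD and 25.5% with the MAD, and its share below was 2.08% with 600-bp bins, 0% at 3 SD, 3.46% with the MAD and 0% with limits from bins with a tag only. In these settings the arms had 5.67% above by midpoint, 4.44% with 600-bp bins, 1.95% at 3 SD and 10.3% with the MAD. The 2LHet median log2 ratio was -0.015 in bins with at least 20 tags. The density of 2LHet against the arms was 0.762 in EHMT+ and 0.776 in EHMTDD1 over all bins up to the last tag, 1.13 and 0.733 for the median bin, and 1.59 and 1.62 in bins with at least 20 tags, and that of XHet was 1.26 and 1.22, 1.93 and 1.33, and 1.91 and 1.85. The EHMT+ to EHMTDD1 total was 1.01 on 2LHet without the 10 bins with most tags and 0.986 on XHet without its first and last 10 kb. The ratio of XHet relative to the X end was 0.690 with 100 kb and 0.817 with 1 Mb. Between the sides of XHet the ratio of ratios was 1.83 without bins past either limit. The alternatives with limits from bins with a tag only, those that leave out the 10 bins, and all those for the sides, were chosen after seeing the data. No paired analysis was possible because there is 1 library per genotype, and no library could be left out. Counting intervals do not cover variation between animals or preparations, and depth limits single bins in thin windows such as the far end of XHet, with 20 and 32 tags.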

Other observations

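The strands were nearly balanced on both scaffolds. Plus-strand tags made up 50.9% (50.1 to 51.7%) of the EHMT+ tags and 51.5% (50.6 to 52.3%) of the EHMTDD1 tags of 2LHet, and on XHet 6410 of 12818 and 6279 of 12460 tags. Tags of opposite strands had their most frequent spacing at 186 bp in EHMT+ and 190 bp in EHMTDD1 on 2LHet and at 188 bp in both libraries on XHet, against 186 and 187 bp in the 5 arms.

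The log2 ratio was similar in neighbouring bins. As a description over bins of the same 2 libraries, its correlation at 0.6 kb, the shortest distance at which 2 bins share no tag, was 0.47 on 2LHet (635 pairs) and 0.44 on XHet (435 pairs). At 1.5 kb it was 0.23 and 0.18. At 9.9 kb it was 0.00 on 2LHet (531 pairs) and 0.17 on XHet (366 pairs).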
